A study of Mus musculus with 8 samples.

Results

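The genes described here are 8 inflammatory mediators of the mouse macrophage: the cytokine gene Tnf, the prostaglandin enzymes Ptgs2 and Ptges, the metabolic enzymes Acod1 and Nos2, the anti-inflammatory cytokine genes Il10 and Tgfb1, and the TNF-inducible gene Tnfaip2. They were chosen by name, with earlier results of these data known. Every array probe whose RefSeq symbol was 1 of these names was taken, 13 of 56282 probes in all. All 8 genes were found. They passed the filter on dim probes and were tested among 21528 genes. RNA came from J774.1, a macrophage-like cell line of the BALB/c strain whose labelled tissue is hemo-lymphocytic, and was hybridised to 1-colour Agilent arrays. There were 4 groups of 2 biological replicates: cells labelled as control, cells given 10 µM isorhamnetin, cells given 10 µM tamarixetin, and cells given 1 µM Torin1. The treatments lasted 6 h. The labels do not say what the control cells received or for how long. No inflammatory stimulus is named in the labels for any group. All values come from 1 cell line, so the replicates carry its spread and not that between animals.

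Many of these genes are under the control of NF-kB, AP-1, C/EBP and related factors in macrophages. TNF is a cytokine that is shed from the membrane and signals through a pair of receptors. Cyclooxygenase-2, from Ptgs2, turns arachidonic acid into prostaglandin H2, which the microsomal synthase from Ptges turns into prostaglandin E2. Acod1 encodes the enzyme that makes itaconate from the Krebs cycle intermediate cis-aconitate, and Nos2 encodes the inducible synthase that makes nitric oxide from arginine. Interleukin-10 and TGF-beta1 restrain macrophage activation, and Tnfaip2 encodes a protein related to an exocyst subunit that takes part in the growth of tunnelling nanotubes. Isorhamnetin and tamarixetin are isomers, both quercetin with a methyl group on 1 hydroxyl of the same ring, at neighbouring positions. Torin1 inhibits the kinase mTOR, which controls translation, growth and autophagy.

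The 75th percentile of the processed signal ranged from 498.3 to 625.8 over the 8 arrays, and 43.86% to 54.08% of spots were well above background, by the flag of the scanner software. The log2 values of replicate arrays correlated across genes at r = 0.9918 to 0.997. Of 12 macrophage markers, 10 were well above background on all 8 arrays, among them Cd68, Adgre1, Itgam and Lyz2, and Mertk and Mrc1 were so on 0 arrays. The summed level of that list, in multiples of the array's 75th percentile, was 456 to 459 in control, 409 to 446 with isorhamnetin, 432 on both arrays with tamarixetin and 473 to 485 with Torin1. The list of 6 T-cell markers summed to 4.56 to 4.95 in control, 3.78 to 4.24 with isorhamnetin, 3.83 to 4.21 with tamarixetin and 2.94 to 3.22 with Torin1, with Cd3e, Cd4 and Lck above background on every array and Cd3g and Cd8a on 0 arrays. Of 6 neutrophil markers 4 had probes, with S100a8 and Elane above background on every array and Mpo and Camp on 0 arrays. The neutrophil list summed to 1.88 to 2.01 in control, 1.23 to 1.71 with isorhamnetin, 1.11 to 1.33 with tamarixetin and 1.30 to 1.35 with Torin1. Both lists were lower on all treated arrays than on the control arrays. The mast-cell list of 5 markers, with Tpsb2 above background on every array and Mcpt4, Cpa3 and Fcer1a on 0 arrays, went the other way. It summed to 0.272 to 0.284 in control. Tamarixetin replicate 2 was at 1.09, and the other treated arrays were at 0.342 to 0.525. The dendritic-cell list summed to 131 to 138 in control and 127 to 157 over all arrays. Siglech was above background on every array, and Ccr7, Xcr1, Clec9a and Flt3 on 0 arrays. The part of these lists in the results was not tested. The B-cell, fibroblast and epithelial lists had 0 markers above background on all 8 arrays. All 8 arrays lay on 1 slide. Control and isorhamnetin filled slide row 1, and tamarixetin and Torin1 filled slide row 2. Row and group therefore cannot be told apart for tamarixetin and Torin1 against control, or for isorhamnetin against tamarixetin. In bulk RNA, fewer cells with a transcript and less of it per cell cannot be told apart.

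Promoter sequences from RefSeq, on the assembly GRCm38.p6, were found for 6 of the 8 genes (Tnf, Ptgs2, Ptges, Acod1, Tgfb1 and Tnfaip2). The 250 bases before the transcript start are printed for the genes on which the comparisons turn: Ptgs2, which moved in opposite directions with isorhamnetin and Torin1, and Acod1 and Tnf, which rose with Torin1. Capitals mark the letters of a motif found by search. Ptgs2 lies at chr1:150099781-150100030 on the plus strand, Acod1 at chr14:103046762-103047011 on the plus strand and Tnf at chr17:35202008-35202257 on the minus strand.
Ptgs2: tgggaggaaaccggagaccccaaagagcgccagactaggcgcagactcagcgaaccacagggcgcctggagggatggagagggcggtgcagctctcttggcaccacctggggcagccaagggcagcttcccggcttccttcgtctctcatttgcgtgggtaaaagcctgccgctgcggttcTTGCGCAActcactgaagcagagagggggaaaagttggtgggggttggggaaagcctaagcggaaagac
Acod1: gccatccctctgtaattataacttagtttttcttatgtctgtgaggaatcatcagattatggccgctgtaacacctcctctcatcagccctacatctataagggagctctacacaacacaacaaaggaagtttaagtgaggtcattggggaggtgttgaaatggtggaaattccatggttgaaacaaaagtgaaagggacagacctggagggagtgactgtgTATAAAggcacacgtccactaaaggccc
Tnf: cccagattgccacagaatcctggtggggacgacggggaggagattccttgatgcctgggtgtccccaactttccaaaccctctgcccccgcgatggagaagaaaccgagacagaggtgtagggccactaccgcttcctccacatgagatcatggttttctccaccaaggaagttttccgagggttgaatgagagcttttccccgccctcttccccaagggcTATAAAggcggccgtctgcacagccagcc

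A set of 7 motifs was searched on both strands in those windows. The letters TATAAA of the TATA box occurred at -29 to -24 from the start in Tnf and at -28 to -23 in Acod1, and in 12.4% of all 32851 mouse promoter windows of that length. The palindrome TTGCGCAA, a match to the C/EBP letters TTGCNNAA, lay at -69 to -62 in Ptgs2, and 9.56% of all windows held such a match. Tnfaip2 had the letters TGACCCCGC at -161 to -153, a match to the antioxidant response element TGACNNNGC, which 10.2% of windows held. The NF-kB letters (GGGA and TTCC with 2 bases of any kind between them), TGACGT (the core of a CRE), TGANTCA (AP-1) and TCACGTG (an E-box) occurred in 0 of the 6 windows and in 1.21%, 6.47%, 6.75% and 3.13% of all windows. Overlap between motifs was allowed, and a match is a run of letters, not a measured site. The 50 bases held after the start, and bases further upstream, were not searched, so an absence holds for these windows only. Looser forms of the motifs were not searched either, so an absence also holds for the printed letters only.

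Torin1 changed 7 of the 8 mediators. Tnf, Acod1, Il10, Nos2 and Tnfaip2 rose, by 1.51-fold to 5.62-fold, while Ptgs2 fell 1.88-fold and Tgfb1 fell 1.16-fold. Ptges was 1.19-fold higher and was not called (adjusted p = 0.0665, limma). Torin1 called 48.7% of all 21528 genes at an adjusted p under 0.05, 21.3% higher and 27.4% lower, so being called is common in this comparison. The size of the changes is given beside that as a description only, since the members were chosen with earlier results of these data known. The members' median absolute log2 difference was 1.05, against 0.33 over all genes. Il10, with rank 159, and Acod1, with rank 366, were near the top of the genes ordered by log2 difference. All 8 mediators had control and Torin1 arrays that did not overlap, as did 78.6% of all genes.

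Isorhamnetin changed 1 mediator, a count that ran from 0 to 4 over the alternative settings given below. Ptgs2 rose 1.78-fold, and the other 7 were not called, with log2 differences from -0.30 in Nos2 to 0.47 in Tnfaip2. Over all genes 0.562% were called in this comparison, 0.423% higher and 0.139% lower. The arrays of the 2 groups did not overlap, at full precision, in 7 of the 8 mediators, against 51.1% of genes. In 1 of the 7, Acod1, the gap rounds to 0.00. Of the 8, 6 had an unadjusted p under 0.05 in limma's test, against 3460 of 21528 genes.

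Tamarixetin, at the same dose and time, had 0 of 8 mediators called, where 0.0743% of all genes were, 0.065% higher and 0.00929% lower. Its arrays did not overlap those of control in 4 of the 8 mediators, against 46.6% of genes. In limma's test 3 mediators, Nos2, Tgfb1 and Tnfaip2, had an unadjusted p under 0.05, as had 2985 genes. The log2 differences from control ran from -0.31 in Nos2 to 0.04 in Ptgs2, 7 of them below 0. The median over the 8 was -0.12, and over all genes -0.03.

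The 2 flavonol isomers were then compared directly, the 1 pair of compounds with matched dose and time. Ptgs2 was 1.73-fold and Tnfaip2 1.62-fold higher with isorhamnetin than with tamarixetin. The other 6 mediators were not called. Over all genes 0.804% were called, 0.562% higher and 0.242% lower with isorhamnetin. The arrays of the isomers did not overlap in 5 of the 8 mediators, against 42.4% of genes. The members' median log2 difference between the isomers was 0.03, the same as over all genes. The comparisons with control share the control arrays, so their values are set side by side. Torin1 was used at a lower concentration, 1 µM against 10 µM, and no test was made between Torin1 and a flavonol.

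**Figure D1:**
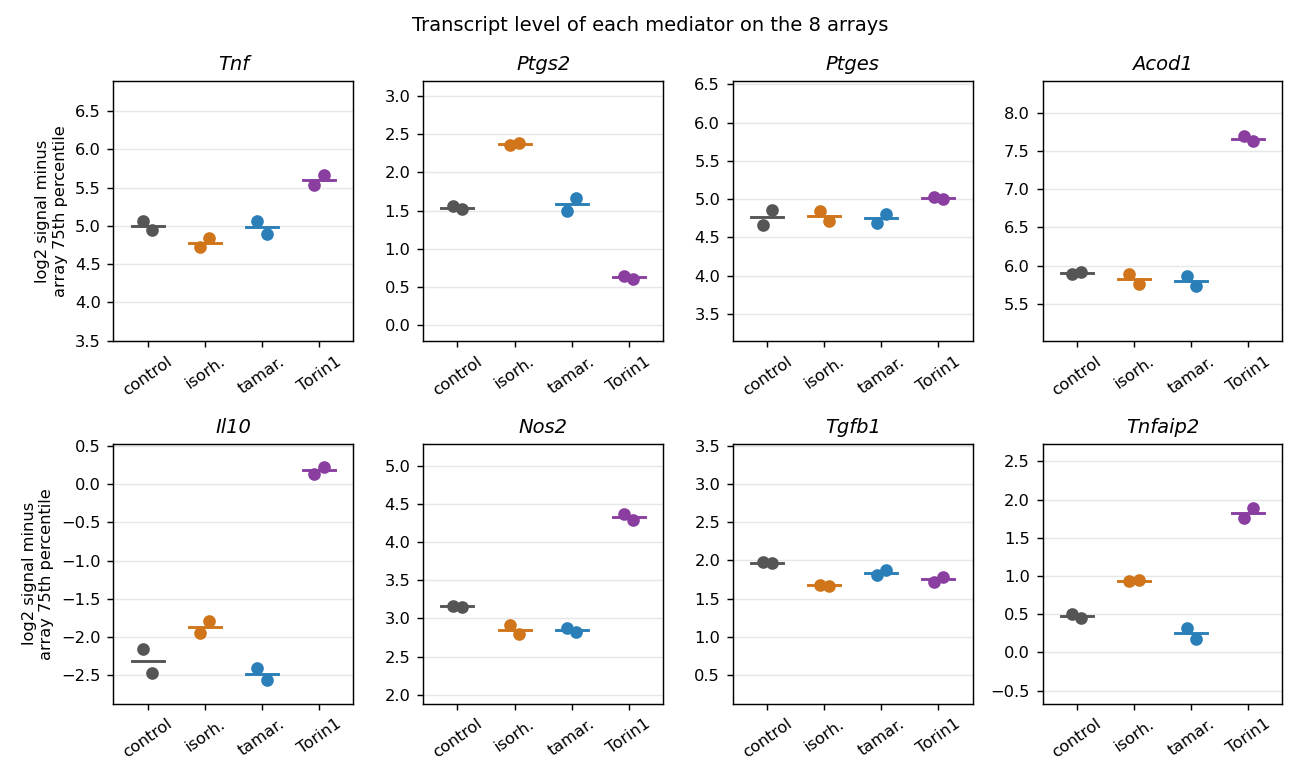
Log2 signal minus the array's 75th percentile (vertical axis) for each of the 8 mediators in the 4 groups (horizontal axis); points are the 2 arrays of a group, lines their mean, and every panel spans the same number of log2 units. Torin1 lies above the other groups in Tnf, Acod1, Il10, Nos2 and Tnfaip2 and below them in Ptgs2, where isorhamnetin lies highest at 2.36 and 2.38.

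Tnf encodes the cytokine itself. Its log2 level relative to the array's 75th percentile was 5.06 and 4.95 in the control replicates 1 and 2. Isorhamnetin gave 4.73 and 4.84, tamarixetin 5.06 and 4.90, and Torin1 5.54 and 5.66. Both Torin1 arrays were above all others, control and tamarixetin overlapped, and both isorhamnetin arrays were below both control arrays by at least 0.11. Tnf rose by 0.60 ± 0.09 (log2 difference ± SE, n = 2 against 2) with Torin1, at an adjusted p of 0.00313 (limma). With isorhamnetin the difference was -0.22 (95% interval -0.43 to -0.01, adjusted p = 0.299), with tamarixetin -0.02 (-0.24 to 0.19), and between the isomers -0.20 (-0.41 to 0.01), none of them called. A second Tnf probe gave log2 differences of -0.22, -0.09 and 0.58 for isorhamnetin, tamarixetin and Torin1 against control. With the array median in place of the 75th percentile, the Torin1 difference of Tnf was 0.37 and lost its call (adjusted p = 0.0587). That scaling moved the median over all genes from -0.06 to -0.29. Its reference lies near the background, as only 43.86% to 54.08% of spots were well above it. The median probe signal was 20.23 and 17.81 in control and 23.3 and 22.37 with Torin1. What this does to the calls was not tested.

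Of 16 tested genes for the processing of TNF, its receptors and the decay of its mRNA, 8 rose and 3 fell with Torin1. Their median log2 difference was 0.21 and became -0.03 under median scaling. Counts for this and the later lists stand beside 21.3% of all genes called higher and 27.4% lower with Torin1. For the flavonols they stand beside 0.562% of all genes called with isorhamnetin and 0.0743% with tamarixetin, so 0 calls in a list is common. The lists were written with earlier results of these data known. Tnfrsf1b encodes the second TNF receptor and was -3.29 and -3.27 in control, -3.70 and -3.58 after isorhamnetin, -3.4 and -3.66 after tamarixetin, and -0.28 on both Torin1 arrays. It rose by 3.0 ± 0.10 with Torin1, or by 1.95 with normexp background correction, and the flavonol arrays lay below the control arrays without a call. Litaf, a regulator named for its effect on TNF in activated cells, rose by 1.19, and Ltb, which encodes lymphotoxin beta, rose by 1.07. Zfp36l2, a relative of Zfp36, rose by 1.03. Zfp36, whose product binds the Tnf mRNA and speeds its decay, rose by 0.78 ± 0.09 with Torin1 and differed by -0.07 with isorhamnetin. Casp8, the initiator caspase of death receptors, fell by 0.65, and Elavl1, an RNA-stabilising protein gene, fell by 0.49, or by 0.33 with quantile normalization. Adam17, the protease that sheds TNF, rose by 0.39 and was not called under median scaling (0.16, adjusted p = 0.168). Tnfrsf1a, the first TNF receptor, fell by 0.22, or by 0.45 under median scaling and 0.13, not called, with quantile normalization, and was called in 11 of 18 alternative settings. With either flavonol 0 of the 16 genes were called.

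Ptgs2 was called in opposite directions with isorhamnetin and with Torin1. Its log2 level was 1.56 and 1.52 in control and 2.36 and 2.38 with isorhamnetin. Tamarixetin gave 1.5 and 1.66, and Torin1 gave 0.64 and 0.61. The isorhamnetin arrays were the highest and the Torin1 arrays the lowest, while the tamarixetin arrays lay on either side of the control arrays. Ptgs2 rose by 0.83 ± 0.07 with isorhamnetin (adjusted p = 0.0172) and fell by 0.91 ± 0.07 with Torin1 (adjusted p = 0.000413). The difference with tamarixetin was 0.04, with a 95% interval of -0.13 to 0.21, which holds changes of either sign. Between the isomers the difference was 0.79 ± 0.07 (95% interval 0.62 to 0.96, adjusted p = 0.0151). In the order of all genes by log2 difference, Ptgs2 was number 241 from the top with isorhamnetin and number 749 from the bottom with Torin1. The size of the isorhamnetin difference stayed between 0.79 and 0.86 in all 18 alternative settings, but its call did not. The adjusted p was 0.127 both without the filter on dim probes and with only the 2 groups compared, and 0.0372 to 0.127 when 1 array was left out. It was called in 2 of those 8 settings, the ones without a tamarixetin array, and lost without either array of control, isorhamnetin or Torin1. The difference between the isomers was called in 8 of 10 settings that leave out no array, not with only the 2 groups compared (adjusted p = 0.204), and in 2 of 8 with 1 array left out, where the adjusted p was 0.0165 to 0.108. The fall with Torin1 was called in all 18.

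**Figure D2:**
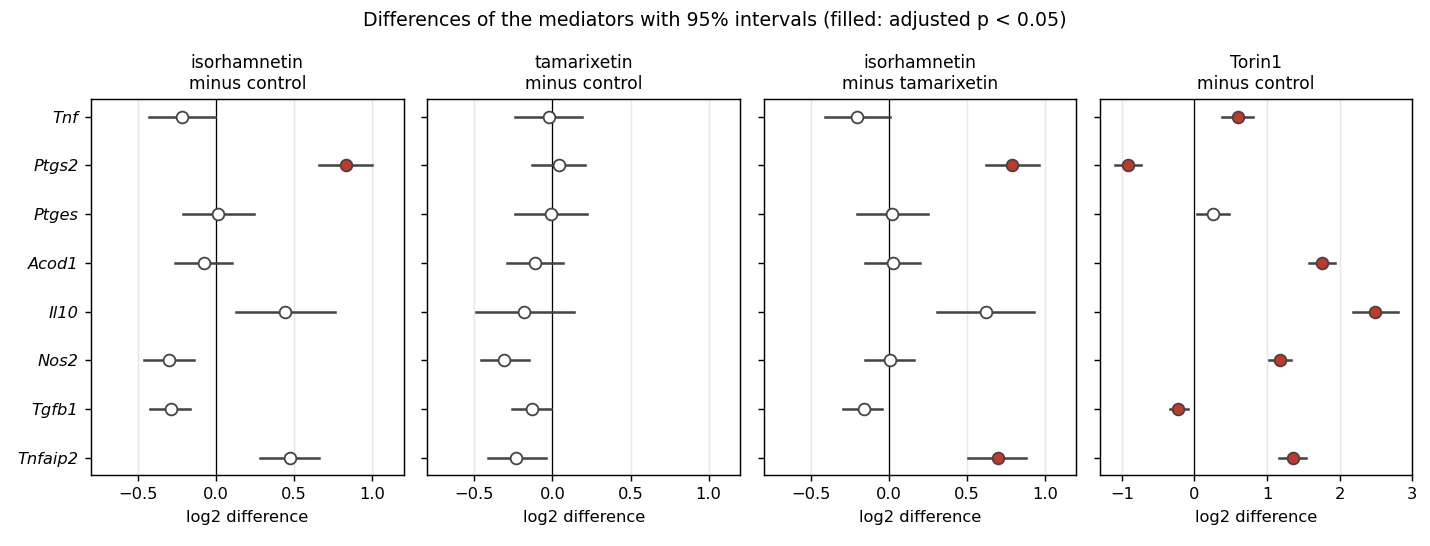
Log2 difference (horizontal axis) of each mediator in the 4 comparisons, with 95% intervals from limma; filled points passed an adjusted p of 0.05, and the Torin1 panel has a wider axis. Ptgs2 is filled on the right for isorhamnetin against control (0.83) and against tamarixetin (0.79) and on the left for Torin1 (-0.91).

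Ptges encodes the inducible synthase that acts after cyclooxygenase-2. Its brightest probe gave 4.66 and 4.86 in control, 4.84 and 4.71 after isorhamnetin, and 4.69 and 4.81 after tamarixetin. Torin1 gave 5.03 and 5.0. The control and flavonol arrays overlapped, and both Torin1 arrays lay above them. The Torin1 difference was 0.25 ± 0.09 and was not called. It was called with quantile normalization (0.41, adjusted p = 0.0109), with normexp background correction (0.0398), under the filter that needs all 8 arrays above background (0.0426), with the trend and robust variance model (0.0213), and without control replicate 2 (0.0471). The difference was 0.01 (95% interval -0.21 to 0.24) with isorhamnetin and -0.01 (-0.24 to 0.22) with tamarixetin. The other 2 probes were far dimmer and gave 0.23 and 0.28 after isorhamnetin, -0.11 and -0.18 after tamarixetin, and 0.09 and 0.06 after Torin1. The 3 probes had the same signs but differed in the size of these shifts, and none was called in any comparison.

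Of 11 tested genes of prostaglandin and leukotriene synthesis and reception, 8 fell and 1 rose with Torin1, and the median log2 difference was -0.40. Pla2g4a encodes the cytosolic phospholipase that frees arachidonic acid. It was 4.45 and 4.51 in control, 4.77 and 4.78 after isorhamnetin, 4.48 and 4.38 after tamarixetin, and 3.35 and 3.33 after Torin1, the same order of groups at both ends as in Ptgs2. It fell by 1.14 ± 0.06 with Torin1. Its differences of 0.29 for isorhamnetin against control (adjusted p = 0.107) and 0.35 between the isomers (adjusted p = 0.0822) were not called. Alox5, the enzyme that starts leukotriene synthesis, fell by 0.97, Ptges3, a co-chaperone also described as a prostaglandin E synthase, fell by 0.71, and Ptger4, a receptor of prostaglandin E2, fell by 0.40, or by 0.63 under median scaling, all with Torin1. Ptges2, the membrane-associated synthase, fell by 0.15, or by 0.38 under median scaling, and was called in 5 of 18 alternative settings. Hpgds, the synthase of prostaglandin D2, rose with Torin1 and was at least 6.06-fold higher (adjusted p = 0.00217), a bound because it was not well above background in control. With normexp background correction its fitted log2 difference was 1.27 in place of 4.24. That correction added an offset of 50 to each signal, which shrinks differences of dim probes, so it cannot test the bound. The Hpgds bound sets the mean of the Torin1 arrays against a control value. On each control array, this is the higher of the dimmest signal well above background and the Hpgds signal. The thromboxane synthase gene Tbxas1 counts among the 8 that fell, but it was not well above background on any control or Torin1 array, so no fold is given. Ptgs1, the constitutive cyclooxygenase, and Ptger2 were too dim to be tested.

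Acod1 had the second largest rise of the 8 with Torin1. Its log2 level was 5.89 and 5.92 in control, 5.89 and 5.76 after isorhamnetin, and 5.86 and 5.74 after tamarixetin. Torin1 gave 7.69 and 7.63. Control and flavonol arrays lay within 0.18 of each other, and both Torin1 arrays were above all of them by at least 1.71. Acod1 rose by 1.75 ± 0.07 (3.37-fold, adjusted p = 7.64e-05) and kept its call in all 18 alternative settings, from 1.52 to 1.83. The difference was -0.08 with isorhamnetin (95% interval -0.26 to 0.10), -0.11 with tamarixetin (-0.29 to 0.07) and 0.03 between the isomers (-0.15 to 0.20).

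Of 17 other tested genes of citrate, itaconate and succinate metabolism, 7 fell and 1 rose with Torin1, with a median of -0.15. Slc25a1, the mitochondrial citrate carrier, fell by 0.99, from 1.94 and 2.02 in control to 0.99 on both Torin1 arrays. Idh1, the cytosolic isocitrate dehydrogenase, fell by 0.83, Acly, which splits citrate in the cytosol, fell by 0.52, and Sdhd, a subunit of succinate dehydrogenase, fell by 0.50. The Acly difference was -0.33 with quantile normalization. With either flavonol 0 of the 17 were called.

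Nos2 was 3.16 and 3.15 in control. It was 2.91 and 2.80 after isorhamnetin, 2.88 and 2.82 after tamarixetin, and 4.37 and 4.29 after Torin1. The flavonol arrays overlapped each other and all lay below control, and the Torin1 arrays lay above. Nos2 rose by 1.18 ± 0.06 with Torin1 (2.26-fold, adjusted p = 0.000162). Its differences of -0.30 with isorhamnetin (adjusted p = 0.121) and -0.31 with tamarixetin (adjusted p = 0.178) were alike in size and were not called, and the difference between the isomers was 0.01 (95% interval -0.15 to 0.16). The isorhamnetin difference was called with the trend and robust variance model (adjusted p = 0.0324). The tamarixetin one was called without the filter on dim probes (0.0464), where 12581 genes were called in place of 16. Its SE there was 0.08, against 0.06 in the main fit.

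Among 13 tested genes of arginine use and nitric oxide synthesis, 3 rose and 5 fell with Torin1, with a median of -0.10. Gch1, the first enzyme in the synthesis of the cofactor tetrahydrobiopterin, fell by 0.68, from 4.07 and 4.09 in control to 3.4 on both Torin1 arrays, and Slc7a1, a transporter of arginine, fell by 0.48. Spr, the last enzyme of that cofactor's synthesis, fell by 0.46, or by 0.69 under median scaling. The mitochondrial arginase gene Arg2, counted among the 3, was well above background on only 1 of the 2 control arrays, and its levels of -5.52 and -4.21 there make its size uncertain. Its adjusted p was 0.0497, its log2 difference ran from 0.28 with normexp background correction to 1.98 over the alternative settings, and it was called in 3 of 17. Arg1 and Slc7a2 were too dim to be tested.

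Il10 changed most of the 8. It was -2.15 and -2.47 in control, -1.94 and -1.79 after isorhamnetin, and -2.41 and -2.56 after tamarixetin. On the Torin1 arrays it was 0.14 and 0.22. Control and tamarixetin overlapped, the isorhamnetin arrays lay just above control, and the Torin1 arrays were above all others by more than the whole span of those. Il10 rose by 2.49 ± 0.13 with Torin1 (5.62-fold, adjusted p = 0.000138), and by 1.86 with normexp background correction. The isorhamnetin difference of 0.44 (95% interval 0.13 to 0.76) was not called (adjusted p = 0.198), and was 0.20 with normexp and 0.28 without control replicate 2. The difference between the isomers was 0.62 (0.31 to 0.93, adjusted p = 0.145), and 0.27 with normexp. It was called only without the filter on dim probes (0.021), a setting that called far more genes in this comparison. The signal of the Il10 probe was 90.11 to 637.5 over the arrays, and the control replicates differed by more than in any other of the mediators.

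Of 12 tested genes of the interleukin-10 receptor and its signalling, 4 rose and 5 fell with Torin1. Their median of 0.13 became -0.10 under median scaling. The 2 receptor chains moved in opposite directions. Il10ra, the ligand-binding chain, was 2.76 and 2.83 in control, 2.46 and 2.39 after isorhamnetin, 2.80 and 2.73 after tamarixetin, and 1.92 and 1.87 after Torin1, a fall of 0.90 ± 0.06 with Torin1. Its difference of -0.36 with isorhamnetin was not called (adjusted p = 0.079). Il10rb, the shared chain, rose by 1.26 ± 0.06 with Torin1, from 2.74 and 2.86 to 4.07 and 4.05. Sbno2 and Socs3, which take part in the interleukin-10 response, rose by 1.47 and 1.04, while Nfil3, a transcription factor of that response, fell by 1.00.

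Tgfb1 shifted little. It was 1.98 and 1.96 in control, 1.68 and 1.67 after isorhamnetin, and 1.81 and 1.87 after tamarixetin. On the Torin1 arrays it was 1.72 and 1.78. All 6 treated arrays lay below both control arrays. Tgfb1 fell by 0.22 ± 0.05 with Torin1 (adjusted p = 0.016), and by 0.45 under median scaling. The difference of -0.29 ± 0.05 with isorhamnetin was larger but was not called (adjusted p = 0.0878), since fewer genes had small p-values in that comparison. It was called under the filter that needs all 8 arrays above background (0.044) and with the trend and robust variance model (0.0247). The difference with tamarixetin was -0.13 (95% interval -0.26 to -0.01), and between the isomers it was -0.16 (-0.29 to -0.04, adjusted p = 0.286). The Torin1 call was lost with quantile normalization (-0.16, adjusted p = 0.0511), without the filter on dim probes (0.115), with the mean of the 2 Tgfb1 probes (0.0791), and without control replicate 1 (0.0728), control replicate 2 (0.0563) or Torin1 replicate 1 (0.0874). The second probe gave -0.21, -0.10 and -0.20 for isorhamnetin, tamarixetin and Torin1 against control, with 0 calls.

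Of 20 tested genes of TGF-beta release, receptors and SMAD signalling, 14 rose and 1 fell with Torin1, with a median of 0.27. Those that rose include genes that restrain the signal, such as Tgif1 and Smad7. Under median scaling 7 rose and 6 fell, with a median of 0.04. Tgfbr1, the type I receptor, rose by 1.73 ± 0.06, from 0.81 and 0.78 in control to 2.57 and 2.47. Its 4 flavonol arrays were at 0.88 to 1.04. Furin, the protease that cleaves the TGF-beta precursor, rose by 1.15, the corepressor gene Tgif1 rose by 1.01, and the inhibitory SMAD gene Smad7 rose by 0.97, each in all 18 alternative settings. Ltbp1, which encodes a protein that binds latent TGF-beta, rose by 0.97 ± 0.17, or by 0.37 with normexp background correction. Tgfbr2, the type II receptor, rose by 0.21 and was at -0.02 under median scaling.

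Tnfaip2 was 0.50 and 0.45 in control, 0.94 and 0.95 after isorhamnetin, and 0.32 and 0.17 after tamarixetin. Torin1 gave 1.76 and 1.89. None of the 4 groups overlapped, and the order was Torin1, isorhamnetin, control and tamarixetin. Tnfaip2 rose by 1.35 ± 0.07 with Torin1 (2.54-fold, adjusted p = 0.000179). The difference of 0.47 ± 0.07 with isorhamnetin (adjusted p = 0.0776) and that of -0.23 with tamarixetin (95% interval -0.41 to -0.04, adjusted p = 0.302) were not called. They had opposite signs, and the isomers differed by 0.70 ± 0.07 (95% interval 0.51 to 0.88, adjusted p = 0.0302). A second probe gave 0.57, -0.30 and 1.35 against control and 0.87 between the isomers. The isorhamnetin difference was called under the filter that needs all 8 arrays above background (adjusted p = 0.0339) and with the trend and robust variance model (0.0152). The call between the isomers was lost under median scaling (0.0777), with only the 2 groups compared (0.218), and in 7 of 8 settings with 1 array left out, where the adjusted p was 0.0382 to 0.165.

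**Figure D3:**
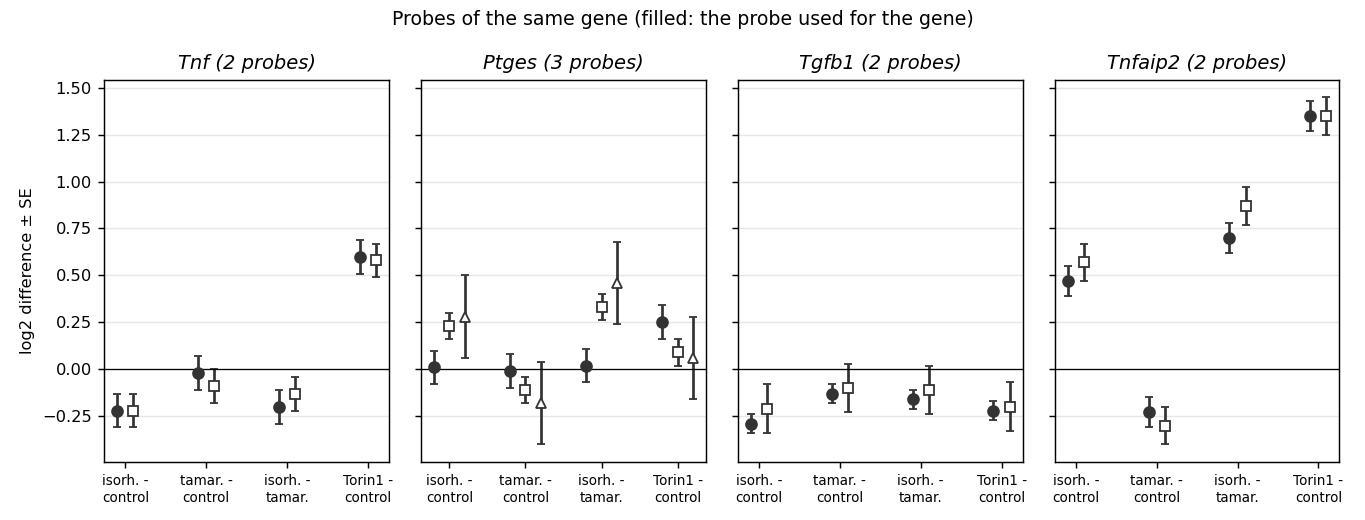
Log2 difference ± SE (vertical axis) in the 4 comparisons (horizontal axis) for the genes with more than 1 probe: Tnf, Tgfb1 and Tnfaip2 with 2 and Ptges with 3; filled symbols are the probe used for the gene. The probes of Tnf and Tnfaip2 lie close together, at 0.60 and 0.58 and at 1.35 and 1.35 with Torin1, while those of Ptges spread from 0.01 to 0.28 with isorhamnetin.

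The relatives and partners of the Tnfaip2 protein were split: of 14 tested genes of the exocyst and the Ral GTPases, 4 rose and 3 fell with Torin1, and the median was -0.04, or 0.04 with quantile normalization. Ralb, a small GTPase that binds the exocyst, fell by 0.62, and the exocyst subunit gene Exoc6 fell by 0.36, or by 0.59 under median scaling. Exoc3l4, a relative of Tnfaip2, rose by 0.43 and was not called under median scaling (0.20, adjusted p = 0.198). The exocyst subunit gene Exoc4 fell by 0.40, or 0.63 under median scaling, but the mean of its probes gave 0.07. With either flavonol 0 of the 14 were called.

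Of 25 transcription factors that act on inflammatory promoters, 10 rose and 7 fell with Torin1, with a median of 0.08 that became -0.16 under median scaling. Atf3, a stress-induced factor, was -0.72 and -0.74 in control, -0.21 and -0.08 after isorhamnetin, -0.79 and -0.88 after tamarixetin, and 3.32 and 3.36 after Torin1. It rose by 4.07 ± 0.07 with Torin1. It also rose by 0.59 ± 0.07 with isorhamnetin (adjusted p = 0.0406), a call kept in 6 of 18 alternative settings. Egr1, an immediate-early factor, was -0.17 and -0.16 in control, -1.10 and -1.09 after isorhamnetin, -0.14 and -0.35 after tamarixetin, and -1.96 and -2.16 after Torin1. It fell by 1.90 ± 0.10 with Torin1 and by 0.93 ± 0.10 with isorhamnetin (adjusted p = 0.0322), the second kept in 8 of 18 alternative settings. Between the isomers Atf3 differed by 0.69 (adjusted p = 0.0224) and Egr1 by -0.85 (adjusted p = 0.0346), each called in 8 of 18 alternative settings. Cebpb and Cebpd, which bind C/EBP sites, rose by 1.27 and 1.05 with Torin1, and the NF-kB subunit gene Relb rose by 1.01. The AP-1 gene Jund fell by 1.05 and the retinoic acid receptor gene Rara fell by 0.87.

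Over all the pathway lists, 45 of 128 tested genes rose and 39 fell with Torin1, and their median log2 difference was 0.00. Of all 21528 genes, 21.3% were called higher and 27.4% lower in that comparison. With isorhamnetin 1 rose and 1 fell, Atf3 and Egr1, and with tamarixetin 0 were called. Over all genes, 0.562% were called with isorhamnetin and 0.0743% with tamarixetin.

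**Figure D4:**
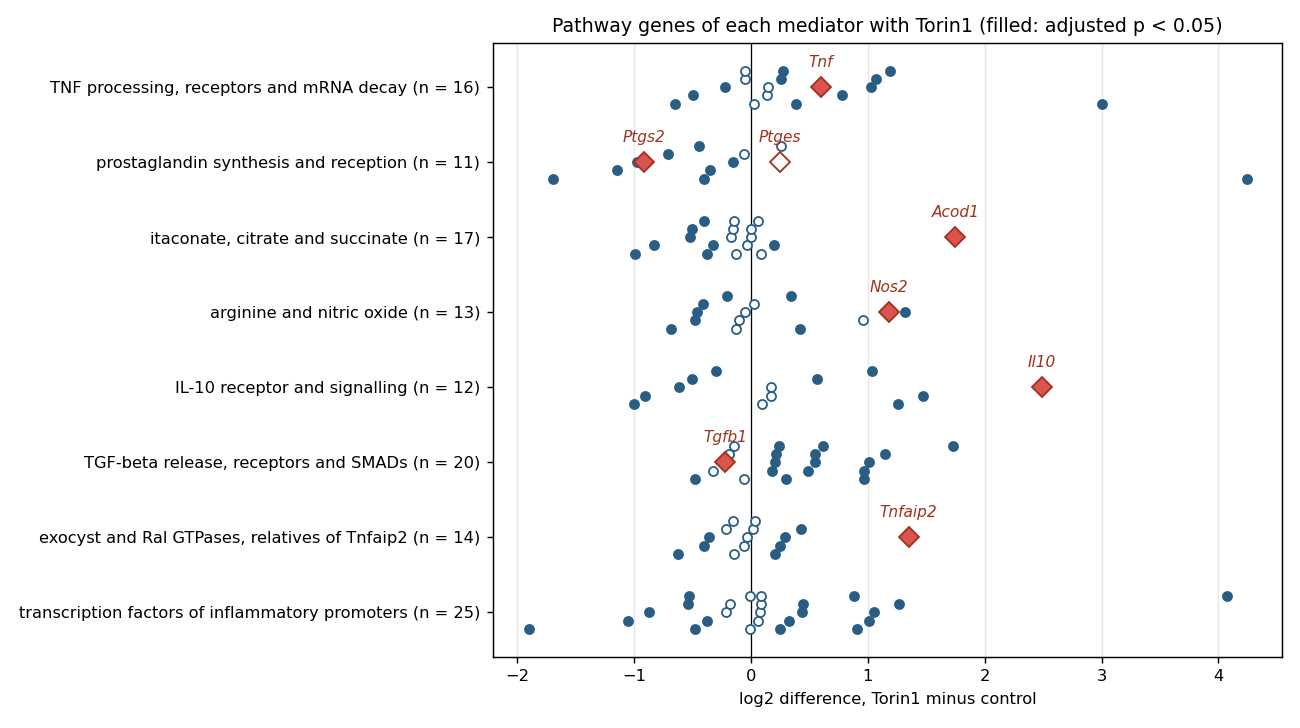
Log2 difference, Torin1 minus control (horizontal axis), of the tested genes of each pathway list (rows); circles are list genes, diamonds the mediators that belong to the list, and filled symbols passed an adjusted p of 0.05. Acod1 (1.75) and Il10 (2.49) lie to the right of their lists, and Ptgs2 (-0.91) lies among falling prostaglandin genes; the far right circle in that row is Hpgds, whose control level was not well above background.

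Genes whose levels followed a called mediator most closely over the 8 arrays were taken by Pearson's r among 11236 genes, as a description over groups that share treatments. For Tnf they were Cxcl16 (r = 0.995), Map3k8 (0.9945) and Atp6v0d1 (0.9924). Cxcl16 encodes a chemokine and Map3k8 a kinase upstream of MAP kinases. For Ptgs2 they were Pgd (0.9945), Kif3c (0.9928) and Gsr (0.9915). Pgd encodes an enzyme of the pentose phosphate pathway and Gsr encodes glutathione reductase. Acod1 was followed by Dgkd (0.9997), Arl5c (0.9995) and Gab2 (0.9994), and Il10 by Aig1 (0.9981), Zfand1 (0.9978) and Phlpp1 (0.9965). Nos2 was followed by Tmem35b (0.9985), Echdc3 (0.9985) and Tlr7 (0.9978), the last a receptor of single-stranded RNA. Tnfaip2 was followed by the transcription factor gene Ets2 (0.996), Lima1 (0.9951) and Lrfn3 (0.9937). For Tgfb1, whose range was small, the closest were Sebox (0.9458), Oas3 (0.9426) and Eif1 (0.9367).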

How the data were processed

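Agilent Feature Extraction 10.7.1.1 read the arrays in 1 channel, per the file headers, and by the same headers the processed signal is an intensity with background subtracted, not scaled between arrays. The log2 values deposited by the authors matched log2 signal minus the array's 75th percentile over probes, centred on each probe's median, within 0.01 for 99.85% of 56605 probes. They were used as an alternative. Here, spots flagged as outliers were dropped (323 probes lost) and log2 signal minus each array's 75th percentile was computed. A probe was kept if both arrays of some group had it well above background, which left 27562. Symbols came from RefSeq names of GRCm38.p6 matched by accession, 32836 of 56282 probes. The arrays' own grid is on an older build, so no array coordinates are printed. Of several probes of a gene, the one with the highest mean was used. All 8 arrays entered 1 limma 3.58.1 fit in R 4.3.3 (lmFit, eBayes, 4 residual degrees of freedom), with two-sided p-values adjusted by Benjamini-Hochberg over 21528 genes and calls at 0.05. An exact permutation test of 2 against 2 arrays cannot go below p = 0.333. The number of arrays limits the precision.

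The members, lists and tests were chosen with earlier results of these data known. Named genes were the 8 mediators with every probe, the 3 genes closest to each called mediator, fixed partners of the mediators, and up to 4 called genes by size from each pathway list. Casp8, Elavl1, Smad7, Cebpd, Relb and Rara were named outside that rule, after their values were seen. The fit was tested on simulated data, with known changes put in for isorhamnetin against control. It called 28% of changes of 0.5 log2 units, 65.3% of those of 1 and 88% of those of 2. Columns of samples outside the series numbered 0. Replicate numbers did not pair the samples. The alternatives were normexp background correction (offset 50), quantile or median scaling, no filter or a filter on all 8 arrays, the mean of a gene's probes, fits of only 2 groups, a trend and robust variance model, a replicate block, the authors' values, and leaving out each array. Promoters were RefSeq windows of 250 bases before the start. Figures were drawn with matplotlib 3.10.9 in Python 3.11.15.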

Additional observations from a re-analysis of the deposited data

How the results depend on the processing

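The Torin1 comparison kept its direction in every member under all 18 alternatives, with 6 to 8 members and 7204 to 12012 genes called. The share of its calls that were higher was 43.7%, but 21.4% under median scaling, whose reference lies near the background. For tamarixetin that share was 87.5%, and 71.4% with quantile normalization, 77.3% under median scaling and 100% with normexp. The counts for the flavonols depended on the setting. Isorhamnetin against control called 121 genes, and 28 under median scaling, 6 without the filter on dim probes, 380 with probes above background on all 8 arrays, 0 with only the 2 groups compared (3304 at an unadjusted p under 0.05, limma), and 466 with the trend and robust model. Its 1 called member became 0 without the filter, 3 with the stricter filter, 0 with only the 2 groups and 4 with the trend and robust model. Tamarixetin against control called 16 genes, and 6 with normexp, 12581 without the filter, 0 with the stricter filter, 10 with only the 2 groups and 82 with the trend and robust model. Without the filter 1 member, Nos2, was called. Isorhamnetin against tamarixetin called 173 genes, and 93 with normexp, 14020 without the filter, 0 with only the 2 groups and 264 with the trend and robust model. Its 2 called members became 1 under median scaling and 0 with only the 2 groups. The causes were not tested.

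With the replicate block, isorhamnetin called 4 genes and 0 members, tamarixetin 10 genes, and the isomers differed in 44 genes and 0 members. Ptgs2 then had an adjusted p of 0.0742 for isorhamnetin and 0.064 between the isomers, and Tnfaip2 0.0943 between the isomers. Same-numbered replicates deviated together with r of -0.131 to 0.083, so they share only a number. With 1 array left out, counts were 5 to 64 genes and 0 to 1 members for isorhamnetin, 0 to 145 genes for tamarixetin, and 42 to 278 genes and 0 to 2 members between the isomers.

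Among the 8 members, signs turned only in uncalled differences near 0. Ptges with isorhamnetin was -0.03 under median scaling and -0.09 to 0.11 with 1 array left out. With tamarixetin, Ptges was 0.00 with normexp, 0.01 with quantile normalization and -0.11 to 0.09 with 1 array left out. Tnf was 0.00 with quantile normalization and -0.10 to 0.06 with 1 array left out. Ptgs2 was -0.06 under median scaling and -0.04 to 0.12 with 1 array left out. Between the isomers, Nos2 was 0.00 with normexp and with quantile normalization and -0.05 to 0.06 with 1 array left out, Ptges -0.04 to 0.09 and Acod1 -0.03 to 0.09.

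Where an arm was left with 1 array, that array was assumed to vary like the other groups. The block for slide or scan was not run, because there was 1 slide and 1 scan. All member probes were well above background on all 8 arrays. The Il10 probe was still dim, with a signal from 90.11, and its differences shrank with normexp. Its rise with Torin1 went from 2.49 to 1.86. Dimness also limits pathway genes: those named as bounds or untested, Arg2, and dim genes such as Tnfrsf1b and Ltbp1, whose differences shrank with normexp. The normexp offset of 50 by itself shrinks differences of dim probes, so the shrinkage in Il10 and these genes cannot show which size is right.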
